A study of Homo sapiens with 38 samples.

Results

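DPPA2 and DPPA4 are SAP domain proteins of the early embryo and germ line that bind DNA as partners and are best known for priming developmental promoters in embryonic stem cells. Gene bodies hold further regulatory DNA away from the gene's 5′ end, both alternative promoters, at which shorter transcripts of the same gene begin, and intronic enhancers. The regions described here are the places within protein-coding genes, away from any gene start, where DPPA2 and DPPA4 were found together in H661 (NCI-H661), a line from a large cell carcinoma of the lung in which both proteins are made.

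Binding was mapped by CUT&RUN, in which an antibody tethers a nuclease that frees the chromatin around the bound protein for sequencing. Of 38 libraries, 8 were IgG controls without region files and 30 had regions from 2 callers, MACS2 for narrow peaks and EPIC2 for broader domains. Parental, untreated H661 cells gave 4 libraries, from an antibody to DPPA2 and from antibodies to the N terminus of DPPA4 (DPPA4n), to DPPA4 (ab154642) and to the centre of DPPA4 (DPPA4c). The shDPPA4 and shDPPA2+4 lines, bulk populations of H661 sorted for PiggyBac constructs with doxycycline-inducible hairpins against DPPA4 alone or against DPPA2 and DPPA4, gave 14 libraries. Each hairpin line was grown for 7 days with water (control) or with 2 µg/mL doxycycline, with DPPA4n and RING1B profiled in both arms and PCGF1, MTF2 and EP300 in the control arm. H1299 cells (NCI-H1299), from another lung carcinoma and lacking DPPA2 and DPPA4 of their own, carried doxycycline-inducible Flag-DPPA2 and V5-DPPA4, received 2 µg/mL doxycycline for 7 days and gave 12 libraries from 6 antibodies with 2 replicates each. H1299 cells without doxycycline were not analysed here. Each antibody and arm of H661 was represented by 1 library, and comparisons within H661 therefore have no replicate check and carry no p-value.

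The members were chosen by their DPPA2 and DPPA4n peaks in the parental libraries. A DPPA2 peak had to share at least 25% of the shorter region with a DPPA4n peak, and its summit had to lie over 2 kb from the start of every annotated gene of any type and inside a protein-coding gene, the host gene, on the autosomes or chromosome X. Of 26640 DPPA2 peaks and 19954 DPPA4n peaks, 12993 DPPA2 peaks were shared in this way (DPPA2/4 sites). These divided into 8505 start sites with a summit within 2 kb of a gene start, 2583 intragenic distal sites, which are the members, and 1905 other distal sites outside protein-coding genes. Both parental libraries were called by the authors against rabbit IgG according to the deposited names, although the DPPA2 antibody is a mouse antibody. The DPPA2 enrichment over IgG at the members, which the choice used, had a median of 6.52-fold with a range from 2.46-fold to 44.2-fold, and the DPPA4n enrichment had a median of 6.31-fold with a range from 2.79-fold to 43.5-fold.

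Values on either side of the limits of the choice are given without a test. The members nearest to a gene start lay in MPP2 (2002 bp), CCDC200 (2004 bp), PIGV (2008 bp) and PDZD4 (2013 bp). The nearest sites left out as start sites lay in PMP22 and THRA (1999 bp each), ENSG00000268797 (1995 bp) and RARA (1991 bp). For the shared length, GSE1 (25.1%), COMMD1 (25.2%), SMAP2 (25.7%) and EPHB3 (25.7%) held the members nearest inside, and C2orf88 (24.8%), ZCCHC14 (24.5%), RFC4 (24.3%) and FBXW5 (24.3%) the peaks nearest outside. In all, 376 members had a summit between 2 and 3 kb from a gene start, 170 shared under 50% of the shorter region, 1325 overlapped in full, and 88 intragenic distal DPPA2 peaks failed the overlap limit alone.

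To show what such DNA looks like, the bases around the summit are given for 5 members, as the + strand of hg38 from 5′ to 3′, with each CpG in capitals. SOD2 and RARG held members among those with strong peaks of both proteins, ELFN1 held a member found in each H1299 and hairpin library, and GRIN1 and RIPOR3 held members with a large decrease of DPPA4 density on hairpin induction.
SOD2, chr6:159693896-159694096: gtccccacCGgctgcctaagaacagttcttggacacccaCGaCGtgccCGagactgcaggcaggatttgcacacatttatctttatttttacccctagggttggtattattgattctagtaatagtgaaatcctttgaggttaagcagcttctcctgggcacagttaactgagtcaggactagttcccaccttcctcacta
RARG, chr12:53220533-53220733: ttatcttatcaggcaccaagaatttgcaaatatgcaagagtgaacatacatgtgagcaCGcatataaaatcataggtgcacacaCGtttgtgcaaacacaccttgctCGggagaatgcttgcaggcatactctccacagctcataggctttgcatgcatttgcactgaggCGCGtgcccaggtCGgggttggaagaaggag
ELFN1, chr7:1668758-1668958: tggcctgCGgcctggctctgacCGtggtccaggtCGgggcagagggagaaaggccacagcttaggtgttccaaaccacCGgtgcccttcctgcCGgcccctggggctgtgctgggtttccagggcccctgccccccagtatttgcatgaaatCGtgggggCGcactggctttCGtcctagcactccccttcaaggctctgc
GRIN1, chr9:137148322-137148522: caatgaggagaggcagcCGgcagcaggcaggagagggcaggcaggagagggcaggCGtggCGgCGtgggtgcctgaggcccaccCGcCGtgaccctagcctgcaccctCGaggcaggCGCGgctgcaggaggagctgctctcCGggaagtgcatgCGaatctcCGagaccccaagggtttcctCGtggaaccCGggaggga
RIPOR3, chr20:50638042-50638242: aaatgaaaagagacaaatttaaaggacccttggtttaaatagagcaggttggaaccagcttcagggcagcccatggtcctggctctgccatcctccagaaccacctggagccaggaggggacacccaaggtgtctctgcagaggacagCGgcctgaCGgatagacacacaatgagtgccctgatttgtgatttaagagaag
The windows held 4, 6, 8, 14 and 2 CpG sites in this order, so that the GRIN1 and RIPOR3 members, both with lower DPPA4 density in the shDPPA2+4 line, had the most and the fewest of the 5. The SOD2 window held 1 match to TGANTCA, the AP-1 motif, and the other windows held none.

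More than 4 in 10 members lay near an annotated transcript start other than the outermost start of its gene. Of the 2583 members, 1118 (43.3%, exact Clopper-Pearson 95% interval 41.4 to 45.2%) had a summit within 1 kb of the start of an annotated transcript, against 3.52% of the other distal sites, and the remaining 1465 lay over 1 kb from every transcript start. The former are called alternative-start members and the latter inner members. These intervals and those that follow cover counting error only. The other distal sites lie outside protein-coding genes by definition, so starts within such genes are mostly out of their reach. Their 3.52% is therefore no background for the 43.3%, and other positions in gene bodies were not counted. The nearest transcript belonged to a host gene at 95.5% of the alternative-start members and ran on the host's strand at 96.8%. It was annotated as protein-coding at 59.0%, as a transcript of a coding gene without a defined reading frame at 17.4%, as a retained intron at 14.3% and as a target of nonsense-mediated decay at 7.07%. Since a gene start is by definition the outermost start of a gene, 530 members (20.5%) lay within 1 kb of the canonical start of a protein-coding gene, the start of its representative transcript, compared with 70.4% of the start sites. All 530 were alternative-start members and made up 47.4% of that group. The name alternative-start thus means a start other than the outermost one and includes representative starts.

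The summits lay mostly in introns, at 84.3% of the members, with 6.74% in coding exons and 8.94% in untranslated exon sequence, and 26.7% lay in the first intron. The median member was 750 bp wide, lay 8.5 kb from the nearest gene start of any kind and lay 19.4 kb from the start of its host. Along the host gene the members were spread over its whole length, with 29.9%, 25.3%, 20.1% and 24.6% in 4 successive parts of equal length from the 5′ end. The inner members placed 30.6% in the last of these and the alternative-start members 16.8%.

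CpG content set the members apart into kinds. CpG-rich sites had a GC content above 55% and an observed-to-expected CpG ratio above 0.75 within 500 bp of the summit, and CpG-poor sites had a ratio below 0.5. Of all members, 18.6% (17.1 to 20.2%) were CpG-rich and 52.4% CpG-poor, compared with 45.3% and 13.7% of the start sites. Alternative-start members lay in between, with 33.6% CpG-rich and 25.3% CpG-poor. Of those within 1 kb of a canonical coding start 49.8% were CpG-rich, and of the other alternative-start members 19.0%. The inner members, with 7.17% CpG-rich, lay near the other distal sites (7.98%), but more of them were CpG-poor, at 73.1% against 62.5%.

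**Figure D1:**
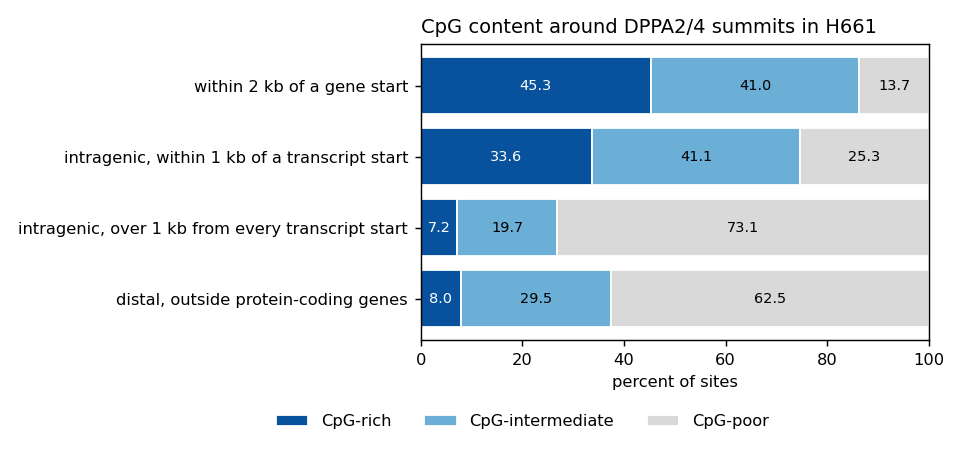
Percent of DPPA2/4 sites in H661 (horizontal axis) in each CpG class, for start sites, alternative-start members, inner members and other distal sites. The CpG-rich share falls from 45.3% at start sites over 33.6% at alternative-start members to 7.17% at inner members.

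Some letters of known binding motifs were counted within 250 bp of each summit, on either strand. GGGCGG, the GC box of SP and KLF factors, stood at 51.99% of the members, at 71.4% of the alternative-start members and at 37.2% of the inner members, while 62.6% of windows of the same length at all protein-coding gene starts held it. TGANTCA stood at 8.98% of the members and 10.4% of the inner members, against 9.12% at all gene starts and 6.23% at the start sites. CCCTNGTGG, the core of the CTCF motif, stood at 4.53% of the members, 3.01% of the start sites and 2.54% of all gene starts, and GCGCATGC, the NRF1 core, at 1.94%, 3.76% and 4.42%. The other distal sites held GGGCGG at 39.7%, TGANTCA at 10.4%, CCCTNGTGG at 4.57% and GCGCATGC at 1.31%. These shares were near those of the inner members, at 37.2%, 10.4%, 4.85% and 1.37%. A match is a description of the letters and not of a bound factor.

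The members lay in 1702 of 19970 protein-coding genes, or 8.52%. In 1226 hosts there was 1 member, in 476 there were 2 or more and in 187 there were 3 or more. Hosts were long genes, with a median of 52.2 kb against 27.5 kb for all protein-coding genes, and the share of genes with a member went from 3.62% of genes under 10 kb to 15.3% of genes over 300 kb. A DPPA2/4 site within 2 kb of the start was found at 831 hosts (48.8%), compared with 35.4% of all protein-coding genes.

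In 6 lists of genes of signalling, development, chromatin and cancer, the share of genes with a member was above the 8.52% of all genes, as a description that does not allow for their length. The lists were chosen with earlier results of these data known, so a share above that of all genes tests nothing. The share was 16 of 61 for the Wnt pathway, 37 of 86 for developmental transcription factors, 24 of 88 for chromatin regulators, 11 of 55 for genes altered in lung cancer, 15 of 47 for the Notch and Hedgehog pathways and 18 of 68 for axon guidance. The median gene length in these lists ran from 24.9 kb to 96.8 kb. The developmental transcription factors carried 79 members, of which 30 were alternative-start members and 25 were CpG-rich.

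Members with strong peaks of both proteins lay in genes of varied roles. In CNFN, which encodes the cornified envelope protein cornifelin, the member in intron 3 (chr19:42386715-42388132) had a DPPA2 enrichment of 44.2-fold and a DPPA4n enrichment of 22.96-fold. In LRFN1, which encodes a synaptic adhesion protein, a member over a coding exon (chr19:39306491-39309073) had 39.6-fold and 35.4-fold. Other members ranked high by the worse of their ranks for DPPA2 and DPPA4n lay in ARHGAP27, SOD2, PAX9, RARG and ELMO2, with DPPA2 enrichments from 21.0-fold to 23.6-fold and DPPA4n enrichments from 20.3-fold to 29.2-fold. All of these 5 were alternative-start members, while the CNFN and LRFN1 members were inner ones. The member in RARG, which encodes a retinoic acid receptor, lay 220 bp from a coding transcript start in intron 3 (chr12:53219838-53221860). The member in SOD2, which encodes the mitochondrial superoxide dismutase, lay 718 bp from a coding transcript start (chr6:159692790-159694496).

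The members were also read with the remaining parental antibodies to DPPA4. A site counted as occupied in a library when an EPIC2 domain (FDR below 0.05, log2 enrichment over IgG above 1) shared at least 25% of the shorter region with it. With ab154642, 90.2% of the members were occupied, beside 90.7% of all DPPA2/4 sites. With DPPA4c, 34.1% were occupied, beside 40.4% of all sites. The DPPA4c library had 13598 domains against 46491 for ab154642. Across the members, the Spearman correlation of the DPPA2 and DPPA4n enrichments was 0.39 (n = 2583 sites of 1 pair of libraries with a shared IgG control), and across the start sites it was 0.46 (n = 8505).

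Tagged proteins brought into H1299 bound part of the same sites, and the members less often than the start sites. The comparison asks whether sites of the endogenous proteins are taken up in another lung cancer line. Antibodies directed at DPPA2 were the DPPA2 antibody and a monoclonal (Flagmono) and a superclonal (Flagsuper) Flag antibody. The DPPA2 antibody found 64.2% and 38.5% of the members in replicates 1 and 2, beside 76.3% and 51.8% of all DPPA2/4 sites. Flagmono found 56.7% and 4.41%, beside 71.5% and 6.48%. Flagsuper found 56.1% and 28.0%, beside 70.6% and 39.8%. Replicate 1 was higher with each antibody, and Flagmono replicate 2 stood apart with 48262 reads in domains, where the other H1299 libraries had 184439 or more. Of the antibodies directed at DPPA4, DPPA4n found 67.2% and 28.0% of the members, beside 78.6% and 42.6% of all sites. The antibody ab154642 found 49.2% and 43.0%, beside 66.7% and 60.4%. V5 found 71.2% and 49.6%, beside 80.6% and 64.4%. The percentage of the members was below that of all sites in each of the 12 libraries.

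On average 46.3% ± 19.3 (SD, n = 12 libraries) of the members and 69.6% ± 23.8 of the start sites were occupied in H1299. The difference of -23.3 percentage points had the same sign in 12 of 12 libraries (two-sided exact sign-flip permutation test, Benjamini-Hochberg adjusted p = 0.000732 over 3 tests, raw p = 0.000488, the smallest p this test can give). The other distal sites were occupied at 29.7% ± 14.0, which was 16.6 percentage points below the members, in 12 of 12 libraries (exact permutation test, adjusted p = 0.000732). With MACS2 peaks the members stood at 30.4% ± 23.3, the start sites at 49.7% ± 34.4 and the other distal sites at 20.6% ± 16.6, and the difference from the other distal sites was 9.84 points, in 11 of 12 libraries (exact permutation test, adjusted p = 0.00146). Libraries directed at DPPA2 found 41.3% ± 22.5 and those directed at DPPA4 51.4% ± 15.9 of the members (SD, n = 6 each). This difference of -10.0 points did not pass the two-sided exact permutation test (adjusted p = 0.396), and without Flagmono replicate 2 it was -2.67 points. The labels do not say whether replicates came from separate cultures, so the p-values cover the variation among these 12 libraries, which may be technical. Libraries with the same replicate number tended to deviate together, so the 12 may not be independent.

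Proximity to a transcript start and CpG content divided the members in H1299. In comparisons added after the data had been seen, alternative-start members were occupied at 62.1% ± 22.8 and inner members at 34.3% ± 17.0, a difference of 27.7 points that held in 12 of 12 libraries (two-sided exact sign-flip permutation test, p = 0.000488, adjusted over 6 comparisons to the same value). Alternative-start members differed from the start sites by -7.56 points, and inner members from the other distal sites by 4.62 points, each in 12 of 12 libraries with the same exact p. The latter difference was lost with MACS2 peaks, where it was 0.48 points, with inner members lower in 7 of 12 libraries (exact permutation test, raw p = 0.427). CpG-rich members were occupied at 71.2% ± 23.7 and CpG-poor members at 31.1% ± 16.8. Within a CpG class the members still lay below the start sites, with differences of -6.39 points for CpG-rich and -14.6 points for CpG-poor sites, each in 12 of 12 libraries (same exact test and p). Members within 1 kb of a canonical coding start were occupied at 72.3% ± 24.3, and the other alternative-start members at 52.9% ± 21.8.

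**Figure D2:**
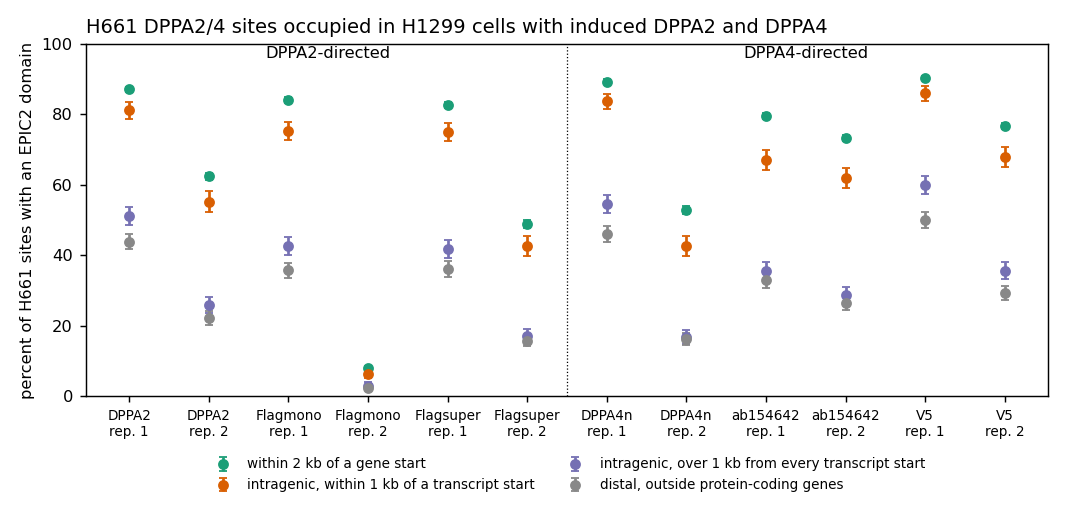
Percent of H661 DPPA2/4 sites with an EPIC2 domain (vertical axis, bars are exact 95% intervals) in each of the 12 H1299 libraries (horizontal axis), for start sites, alternative-start members, inner members and other distal sites. The order of the site kinds is the same in each library, and the points of Flagmono replicate 2 lie at 8.05% or lower.

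The number of H1299 libraries per member showed the spread. A domain was present in at least 6 of the 12 libraries at 1350 members (52.3%) and in 11 or more at 443 (17.2%). It was present in none at 604 members (23.4%). Over all sites these shares were 69.0%, 27.3% and 15.6%. The start sites reached 6 or more libraries at 82.1% and 11 or more at 34.7%, and the other distal sites at 33.2% and 8.08%. Among start sites, 7.02% were in none, and among the other distal sites 43.7%. The share in none was 10.5% of the alternative-start members and 33.2% of the inner members. Enrichment in H661 moved with this: members with a DPPA2 enrichment up to 5.66-fold were occupied at 35.4% ± 18.2 over the 12 libraries, and members of 7.93-fold or more at 60.5% ± 20.7. At the same limits the share also rose at the start sites (61.2% ± 24.8 and 77.0% ± 22.6) and at the other distal sites (20.6% ± 11.4 and 42.3% ± 17.0). Inner members whose window held GGGCGG were occupied at 46.4% ± 21.6 and those without it at 27.2% ± 14.4.

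Single members ran from full to no uptake in H1299. The ELFN1 member lay in an intron of a gene for a postsynaptic adhesion protein (chr7:1668118-1670160) and was an inner, CpG-poor member with a domain in 12 of 12 H1299 libraries, at 22.2 to 119 reads per kb of domain. In all 26 libraries from H1299 and the hairpin lines, the members named in ELFN1, ELMO2, INPP5B, PLEC and HEY1 were occupied, and the ELFN1 member was the inner one among these 5. At the member of HEY1, a repressor and target of Notch, the density ran from 21.7 reads per kb (Flagmono replicate 2) to 179.6 reads per kb (V5 replicate 1). The LRFN1 member, second in DPPA2 enrichment, had a domain in 2 of 12 H1299 libraries, at 18.6 reads per kb with the DPPA2 antibody in replicate 2 and 30.0 reads per kb with V5 in replicate 1. The members of WNT3A, a Wnt ligand (chr1:228059403-228060125, 22.6-fold for DPPA4n), and of GLI2, a transcription factor of Hedgehog signalling (chr2:120738835-120742582, 12.1-fold), had a domain in 0 of 12. Counts below the callers' limits are not listed, so a missing domain does not show that reads were absent. Both had DPPA4n domains in the water arms of the hairpin lines, at 214 and 78.1 reads per kb for WNT3A and 119.8 and 40.9 reads per kb for GLI2.

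In control H661 cells, the hairpin lines grown with water, nearly all members were bound by DPPA4 again, and EPIC2 domains of RING1B and EP300 were each found at over 50% of them. With MACS2 peaks EP300 stood at 31.1% (shDPPA4) and 38.2% (shDPPA2+4). RING1B is the catalytic core of Polycomb repressive complex 1 (PRC1), PCGF1 marks a variant PRC1, MTF2 is an accessory subunit of Polycomb repressive complex 2 with affinity for CpG-rich DNA, and EP300 is a histone acetyltransferase of active promoters and enhancers. DPPA4n domains covered 98.6% (shDPPA4) and 97.1% (shDPPA2+4) of the members, beside 97.8% and 97% of all DPPA2/4 sites. RING1B covered 64.2% and 54.4%, beside 79.7% and 71.5%. EP300 covered 51.99% and 55.6%, beside 64.2% and 68.6%. MTF2 covered 42.6% and 39.8%, beside 61.2% and 59%. PCGF1 covered 21.2% and 21.4%, beside 33.2% and 32.2%. With each of these 4 proteins the members lay below the share of all sites in both lines. For DPPA4n the members lay 1 point or less above all sites, and with MACS2 peaks below them, at 97.9% and 94.8% beside 98.5% and 96.8%.

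**Figure D3:**
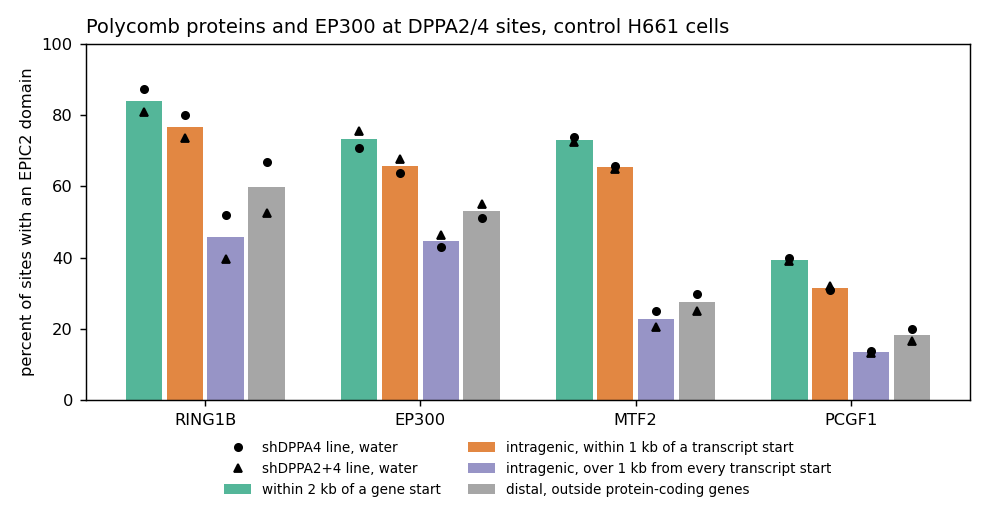
Percent of DPPA2/4 sites with an EPIC2 domain (vertical axis) of RING1B, EP300, MTF2 or PCGF1 in control H661 cells. Bars are the mean of both hairpin lines grown with water and the black marks the lines themselves (1 library each). For MTF2 the alternative-start members stand at a mean of 65.3% and the inner members at 22.8%, and for EP300 at 65.7% and 44.7%.

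The combination of proteins followed the CpG content in different measure for MTF2 and EP300. MTF2 was present in both lines at 83.4% of the CpG-rich members and at 7.09% of the CpG-poor members, whereas EP300 was present in both at 62.4% and 30.4%. Start sites showed the same order. As means of both lines, MTF2 stood at 88.3% of CpG-rich and 27.3% of CpG-poor start sites, against 88.4% and 11.3% of members. EP300 stood at 81.8% and 48.4% of these start sites, against 72.0% and 41.5% of members. RING1B in both lines stood at 69.9% of the alternative-start members and 35.9% of the inner members. At 344 members (13.3%), EP300 was found in both lines and MTF2 in neither, and this applied to 17.5% of the inner members, 21.0% of the other distal sites, 6.85% of the start sites and 10.2% of all sites. None of the 4 proteins had a domain in either line at 568 members (22.0%), compared with 6.06% of the start sites and 21.4% of the other distal sites. All 4 were present in both lines at 204 members (7.90%). This count is not set against other sites here, and each of the 4 proteins alone was less frequent at the members than over all sites. Fewer cells with a bound protein and less binding per cell cannot be told apart in these bulk libraries.

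Some host genes held many members, whose spacing was not tested against gene length. GSE1, which encodes a coregulator found in histone deacetylase complexes, held 27 members with a median gap of 4.39 kb between neighbours. Of these, 1 was an alternative-start member and 23 were CpG-poor, and the DPPA2 enrichments ran from 3.96-fold to 15.4-fold. In the H1299 libraries between 4 and 23 of the 27 were occupied, with the lowest count in Flagmono replicate 2 and the highest in V5 replicate 1. In the water arms RING1B was found at 16 and 11 of the 27, EP300 at 10 and 11, MTF2 at 4 and 2 and PCGF1 at 3 and 3. The next hosts were ADGRL2, an adhesion receptor of the latrophilin family, and ARHGAP15, a regulator of the GTPase Rac, with 13 members each, then DLGAP1, a postsynaptic scaffold gene, with 11, ZNF608, a zinc finger gene, with 10 and TOX, a gene for an HMG box protein, with 9.

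H1299 uptake differed among these genes, as a description of chosen hosts. No member of ARHGAP15 had a domain in any of the 12 H1299 libraries (0 of 13), although DPPA4n covered 13 of 13 in both water arms, RING1B 7 and 3, and EP300 9 and 7. In ADGRL2, 10 of 13 members were in none of the 12, in ZNF608 8 of 10, in TOX 7 of 9 and in DLGAP1 5 of 11, whereas in GSE1 it was 2 of 27. MTF2 and PCGF1 had no domain at any member of ARHGAP15 or ZNF608, while EP300 stood at 7 and 8 of the 10 members of ZNF608. All 13 members of ARHGAP15 and all 10 of ZNF608 were CpG-poor. The IgG reads in the DPPA2 domains of these genes had medians from 2.22 reads per kb (GSE1) to 3.75 reads per kb (DLGAP1), beside 2.31 reads per kb over the members with a DPPA2 domain. Copy number of these genes in either line was not tested.

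Hairpin induction left DPPA4 domains at most members. The comparison asks where binding is lost when DPPA4, or DPPA2 and DPPA4, are depleted. A member with a domain in water was called when the domain was gone with doxycycline or when the read density, in reads per kb of domain and per library read, was lower by more than 2-fold. In the shDPPA4 line, 299 of 2548 members with a DPPA4n domain in water had none with doxycycline, and 592 (23.2%, interval 21.6 to 24.9%) were called, beside 19.3% of all DPPA2/4 sites. In the shDPPA2+4 line, 165 of 2509 had none and 809 (32.2%, interval 30.4 to 34.1%) were called, beside 27.3% of all sites. In both lines the members' share lay above that of all sites, without a test, since each arm had 1 library. Among CpG-poor sites, members were called at 25.1% (shDPPA4) and 31.9% (shDPPA2+4), no more often than start sites, at 25.96% and 32.4%. Among CpG-rich sites, members had 21.3% and 34.7% and start sites 17.7% and 27.6%. Among sites neither CpG-rich nor CpG-poor, members had 21.1% and 31.25% and start sites 16.2% and 22.5%. The order of the lines depended on the measure: with MACS2 peaks 58.4% and 40.2% of the members were called, beside 56.9% and 35.1% of all sites. Without scaling for library size it was 69.1% and 8.21%, beside 70.1% and 5.78%, so that in shDPPA4 the members then lay below all sites. Of the members occupied in both lines in water, 318 were called in both, which was 56.3% of the 565 calls in shDPPA4 and 39.5% of the 806 calls in shDPPA2+4, beside 52.8% and 36.5% over all sites.

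The size of the change depended on how a domain was measured. At members with a domain in both arms, the median log2 change of DPPA4n density was -0.38 in shDPPA4 and -0.71 in shDPPA2+4, beside -0.40 and -0.68 over all sites. Without scaling for library size the medians of the members were -1.21 and 0.24 and those of all sites -1.23 and 0.27, which turns the direction in shDPPA2+4. The doxycycline library had 0.561 times the size of the water library in shDPPA4 and 1.93 times in shDPPA2+4, both relative to the same IgG library. The domains themselves were narrower with doxycycline, with medians of 3.2 kb in water and 1.1 kb with doxycycline in shDPPA4, and of 2.7 kb and 1.5 kb in shDPPA2+4. When the total reads of the domain were used in place of the density, an alternative added after the data had been seen, 78.2% and 72.2% of the members were called, beside 76.2% and 67.9% of all sites. A domain can be wider than a member and hold several of them, and neighbouring members can then share one value.

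RING1B was called at a smaller share of the members on shDPPA4 induction than on shDPPA2+4 induction, with both shares depending on the caller. In shDPPA4, 182 of 1658 members (11.0%, interval 9.51 to 12.6%) were called, beside 9.57% of all sites, and the median log2 density change was -0.25 when scaled and 0.11 when not. In shDPPA2+4, 686 of 1404 (48.9%, interval 46.2 to 51.5%) were called, beside 46.7% of all sites, and the median change was -0.73 when scaled and -0.04 when not. Of the 686, 452 had no RING1B domain left. With MACS2 peaks 42.2% (shDPPA4) and 75.9% (shDPPA2+4) were called, beside 37.3% and 70.9% of all sites. The inner members had no domain left at 40.0% and the alternative-start members at 26.6% in shDPPA2+4 and at 10.6% and 4.36% in shDPPA4. Over all sites it was 27.6% and 4.92%, and over the other distal sites 40.4% and 7.62%, so that the alternative-start members lay near all sites and the inner members, in shDPPA2+4, near the other distal sites. In numbers of occupied members, RING1B domains stood at 64.2% in water and 68.9% with doxycycline in shDPPA4, and at 54.4% and 40.2% in shDPPA2+4, but with MACS2 peaks the shares were 54.1% and 40.7% in shDPPA4, the opposite direction, and 54.3% and 20.3% in shDPPA2+4.

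RING1B calls were then set beside DPPA4 calls at the same members. In shDPPA2+4, RING1B was called at 51.4% (46.3 to 56.4%) of the 397 members with DPPA4 called and at 47.9% (44.7 to 51.0%) of the 1003 members with DPPA4 not called. In shDPPA4 the shares were 11.1% (7.65 to 15.3%) and 11.0% (9.36 to 12.7%). The intervals overlapped in both lines, but they cover counting error only, and 1 library per arm allows no test. At the start sites the shares were 45.4% (42.9 to 47.8%) and 44.4% (43.0 to 45.8%) in shDPPA2+4. In shDPPA4 the start sites had 11.9% (10.0 to 13.9%) and 8.34% (7.67 to 9.05%), and these intervals did not overlap. Whether RING1B calls go with DPPA4 calls was not tested.

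**Figure D4:**
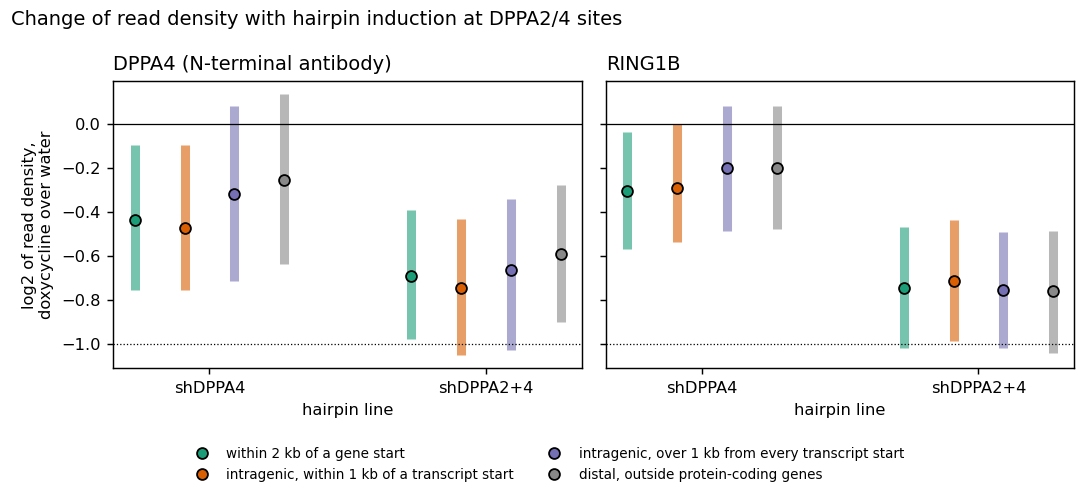
Log2 of the read density with doxycycline over that with water (vertical axis, scaled for library size) at sites with a domain in both arms, for DPPA4n (left) and RING1B (right) in each hairpin line. Points are medians and bars run from the lower to the upper quartile over sites, the dotted line marks a 2-fold decrease, and the medians of alternative-start and inner members lie between -0.20 and -0.75.

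Large decreases of DPPA4 density were seen where a wide water domain shrank to a short remainder. In GRIN1, which encodes a subunit of the NMDA receptor, the member in intron 3 (chr9:137148133-137148872, 587 bp from a transcript start) lay in a water domain of 4.4 kb with 166 reads per kb in shDPPA4, and with doxycycline in one of 0.4 kb with 17.5 reads per kb, a log2 change of -2.41. In shDPPA2+4 it had 110.0 and 28.6 reads per kb, a change of -2.89. Both lines thus showed the decrease at GRIN1, with 7 and 20 reads left in the doxycycline domains, and no RING1B, EP300, MTF2 or PCGF1 domain was listed there. At the member of RIPOR3 (chr20:50638082-50638367), the density was 77.5 and 20.0 reads per kb in shDPPA2+4, a change of -2.90, while in shDPPA4 it was 66.7 and 26.7 reads per kb, a change of -0.49. At PDE4A, a gene for a cyclic AMP phosphodiesterase, it was 174 and 17.1 reads per kb in shDPPA4, a change of -2.51, and 105 and 122 reads per kb in shDPPA2+4, a scaled change of -0.73. At RAI1, which encodes a transcriptional regulator, it was 244 and 28.3 reads per kb in shDPPA4, a change of -2.27. RIPOR3, PDE4A and RAI1 passed the 2-fold limit in 1 line each. In shDPPA4, RIPOR3 had only 20 reads in water and 8 with doxycycline. In shDPPA2+4, RAI1 had only 16 and 14 reads, a change of -0.72, while PDE4A had 811 and 782. With so few reads at RIPOR3 and RAI1, a difference between the lines cannot be read from these members. These members were picked for their decrease, so the values describe them and test nothing.

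CBX2 and CBX8, neighbouring genes for chromodomain subunits of PRC1, shared 1 DPPA4n domain in water, of 22.2 kb in shDPPA4 and 20.1 kb in shDPPA2+4. With doxycycline it broke up into shorter domains. Around the CBX2 member (chr17:79787094-79787406) the density was 181 and 25.3 reads per kb in shDPPA4, a change of -2.003, and 90.6 and 26.7 reads per kb in shDPPA2+4, a change of -2.71. Around the CBX8 member (chr17:79792046-79794615) it was 83.5 reads per kb with doxycycline in shDPPA4, a change of -0.28, and 84.8 in shDPPA2+4, a change of -1.04. The CBX8 member had domains in 11 of 12 H1299 libraries and the CBX2 member in 0.

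Members with strong peaks of both proteins were then read in the same way. At RARG the density was 153 reads per kb both in water and with doxycycline in shDPPA4, a scaled change of 0.84, while the domain went from 9.4 kb to 2.5 kb. At ELFN1 the scaled changes were -0.37 in shDPPA4 and -1.22 in shDPPA2+4. At SOD2 they were -0.65 and -0.97. The 2-fold limit on density was thus passed by ELFN1 in shDPPA2+4 and by none of these 3 members in shDPPA4. Density does not count the narrowing of the domains. In shDPPA4 the reads of the whole domain went from 1438 to 383 at RARG, from 2273 to 274 at ELFN1 and from 609 to 168 at SOD2. These counts are not scaled for the smaller doxycycline library. For RING1B in shDPPA2+4, the SOD2 member had 51.2 and 39.3 reads per kb, a change of -1.08. The RARG member had 66.7 reads per kb in water and no domain with doxycycline.

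By gene list, the leading members by DPPA2 enrichment and the calls were as follows. In the Wnt list, the members of the ligand genes WNT3A (19.6-fold) and WNT2B (12.5-fold) and of BCL9L, a coactivator of beta-catenin (12.3-fold), led, and DPPA4 was called at 9 of 23 members in shDPPA4 and 9 of 22 in shDPPA2+4. Among developmental transcription factors, led by RARG (23.6-fold), PAX9 (21.5-fold) and NFIC (20.9-fold), it was called at 23 and 29 of 79. Among chromatin regulators, led by the histone demethylase genes KDM2A (20.4-fold) and KDM4C (13.6-fold) and by CBX8 (13.1-fold), it was called at 16 of 48 and 11 of 47. These counts stand beside 23.2% and 32.2% of all members. Among lung cancer genes, the receptor gene ERBB3 (12.4-fold), the kinase gene STK11 (10.8-fold) and CDKN1A, which encodes the cell cycle inhibitor p21 (10.4-fold), led, with calls at 5 of 14 and 6 of 13. The Notch and Hedgehog list was led by HEY1 (14.7-fold), GLI2 (14.2-fold) and the ligand gene SHH (12.6-fold), with calls at 6 of 26 in both lines. The axon guidance list was led by the receptor genes ROBO3 (13.6-fold), EPHA10 (11.3-fold) and PLXND1 (10.8-fold), with calls at 10 and 13 of 30.

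The lists were also read for RING1B and MTF2 in the water arms. RING1B had domains in both lines at 18 of 23 members of Wnt genes, at 49 of 79 of developmental transcription factors, at 26 of 48 of chromatin regulators, at 16 of 26 of Notch and Hedgehog genes, at 9 of 30 of axon guidance genes and at 6 of 15 of lung cancer genes, beside 50.6% of all members. MTF2 stood in both lines at 11 of 23, 40 of 79, 12 of 48, 15 of 26, 10 of 30 and 4 of 15 in the same order, beside 35.4%. In H1299, the mean share of occupied members ran from 43.9% ± 21.0 for axon guidance genes to 57.5% ± 22.3 for chromatin regulators (SD, n = 12 libraries), beside 46.3% for all members. In the SHH gene, 4 members were found, of which 3 were CpG-rich. The leading SHH member (chr7:155803279-155804451) had an MTF2 density of 208 and 228 reads per kb and a RING1B density of 129 and 105 reads per kb in the water arms, and domains in 9 of 12 H1299 libraries.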

How the data were processed

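CUT&RUN reads were processed by the authors with Trim Galore 0.6.6, BWA 0.7.13, SAMtools 1.9, Picard 2.6.0 and deepTools 3.5.0 on hg38 (GRCh38.p13), and regions were called over IgG with MACS2 (2.27.1 in the submitters' processing notes) and EPIC2. The deposited MACS2 peaks give a fold enrichment (ratio over IgG), a −log10 p-value and q-value and a score. The deposited EPIC2 domains give raw read counts of the library and of IgG, a p-value with its FDR, a score and a log2 fold over IgG. Regions were kept at FDR below 0.05 and a fold above 2 (log2 above 1 for EPIC2) on the autosomes and chromosome X, and the ENCODE blacklist was not applied here.

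Genes, transcripts and starts came from GENCODE 44. The members and gene lists were chosen with earlier results of these data known. EPIC2 domains gave occupancy in the other libraries. Knockdown densities were scaled by the library size implied by the EPIC2 log2 fold and counts, relative to the shared IgG library. Libraries held 146952 to 6850681 reads in domains for H661 and 48262 to 3025428 for H1299. Percentages of members in the 12 H1299 libraries were compared by two-sided exact permutation tests with Benjamini-Hochberg adjustment. Shares have exact Clopper-Pearson 95% intervals.

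Members were named by host gene. Named were the 8 with the best lower rank of both enrichments, the 6 present in most of 26 H1299 and hairpin libraries, the 6 hosts with most members, the 4 sites on each side of both limits, the 3 with the largest decrease of DPPA4 density per hairpin line among those with at least 100 control reads, and the leading 3 of each list. Alternatives were MACS2 peaks, a log2 limit of 2, other windows, members over 2 kb from every transcript start, unscaled densities, lost domains alone, and leaving out each replicate. Replicate numbers were checked for pairing. Deviations of same-numbered H1299 libraries correlated between -0.085 and 0.35 (median 0.12), and those of differently numbered libraries between -0.34 and 0.04 (median -0.12). Same-numbered libraries thus tended to deviate together. The labels do not say what a number shares, so the main tests did not pair by it, and the number as a block was an alternative. Code was tested on simulated data and run with python 3.11.15, numpy 2.4.6, pandas 2.3.3, scipy 1.17.1 and matplotlib 3.10.9. The IgG libraries had no region files and entered through the counts in the EPIC2 domains. Some named members are not reported here.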

Additional observations from a re-analysis of the deposited data

Results flagged for a closer look

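The share of members with a RING1B domain moved in opposite directions in the hairpin lines. With doxycycline it was 4.68 percentage points higher than with water in the shDPPA4 line (64.2% and 68.9%) and differed by -14.1 percentage points in the shDPPA2+4 line (54.4% and 40.2%). The same directions were seen at the start sites (1.25 and -17.1 points) and at the other distal sites (4.04 and -17.6 points). The difference between the lines was not tested, since each arm had 1 library. With MACS2 peaks the share was lower with doxycycline in both lines, at 54.1% and 40.7% in shDPPA4 and at 54.3% and 20.3% in shDPPA2+4. The RING1B libraries with doxycycline were 1.28 times (shDPPA4) and 1.62 times (shDPPA2+4) the size of those with water, and the part of library size in the result was not tested.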

How the results depend on the processing

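The mean differences in H1299 kept their sign under the alternatives run, but the difference between inner members and other distal sites did not pass with MACS2 peaks (0.48 points). In the hairpin lines some directions turned. Without scaling the members' median density change was 0.24 for DPPA4n in shDPPA2+4 and 0.11 for RING1B in shDPPA4, in place of -0.71 and -0.25, and with total reads the latter was 0.06. The RING1B share in shDPPA4 was lower with doxycycline by MACS2 and higher by EPIC2, and the DPPA4n share of the members in water passed from above to below that of all sites with MACS2. The order of the lines for DPPA4 calls turned with MACS2 and without scaling. The cause was not tested. With members restricted to summits over 2 kb from every transcript start, 1232 sites were left, of which 6.57% were CpG-rich, and the mean of both lines was 46.1% for EP300, 45.2% for RING1B, 21.8% for MTF2 and 12.3% for PCGF1. These sites exceeded the other distal sites in H1299 by 1.84 points (exact sign-flip permutation test, adjusted p = 0.0256). A 500 bp window gave 33.0% near a transcript start, and a 250 bp half-window gave 20.6% CpG-rich. With MACS2 peaks PCGF1 stood at 3.74%, MTF2 at 30.8% and EP300 at 34.6%, and with a log2 limit of 2 RING1B stood at 46.3%, PCGF1 at 15.3%, MTF2 at 29.0% and EP300 at 34.2%. The share of members with DPPA4 called, as a mean of both lines, was 49.3% with MACS2, 38.7% without scaling, 9.16% for lost domains alone and 75.2% with total reads (added after seeing the data), and that of RING1B was 59.0% with MACS2. Leaving out 1 library, or all libraries of replicate 1 or of replicate 2, gave differences in H1299 from -25.1 to -21.8 points against start sites, 13.3 to 20.0 against other distal sites, -16.5 to -2.67 between DPPA2-directed and DPPA4-directed libraries. Without replicate 1 or replicate 2, the comparisons added after seeing the data gave 24.99 to 30.5 points between alternative-start and inner members, -7.62 to -7.50 between alternative-start members and start sites, 2.43 to 6.81 between inner members and other distal sites, 37.6 to 42.5 between CpG-rich and CpG-poor members, and -6.74 to -6.04 (CpG-rich) and -17.9 to -11.3 (CpG-poor) between members and start sites. With the replicate number as a block, the difference between DPPA2-directed and DPPA4-directed libraries was -10.0 points (exact permutation test, p = 0.185) and stayed on the same side of the threshold. Sites under the callers' limits are not listed, so depth bounds each share.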
